A study of Mus musculus with 6 samples.

Results

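The mature red blood cell holds its shape and its surface antigens through a small set of membrane genes, and 8 of them were followed here in knee joint cartilage of mice. They were taken by gene symbol from the count table: *Sptb*, *Ank1*, *Epb41*, *Epb42*, *Slc4a1*, *Rhag*, *Rhd* and *Kel*. Each symbol had a single row among 55487 genes, and all 8 passed the filter on low counts that left 17175 genes for testing. Poly(A) RNA of cartilaginous tissue of the knee joint was sequenced at postnatal day 6 in 3 wild-type (WT) and 3 *Hbb*-cKO libraries. In *Hbb*-cKO the β-globin gene *Hbb* was conditionally knocked out in chondrocytes. The study's floxed mice, made on a C57BL/6J background, carry loxP sites for deletion of *Hbb-bs* and *Hbb-bt*, the adult β-globin genes. That study crosses them with *Prx1-Cre* or *Col2a1-CreERT2* mice, and it uses the name *Hbb*-cKO for the tamoxifen-induced *Col2a1-CreERT2* cross. For the sequenced libraries themselves the line, any tamoxifen dosing, the sex and the number of mice behind each library are not stated. P-values therefore measure the spread between libraries.

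In an erythroblast, the nucleated precursor of a red cell, spectrin tetramers form a net under the plasma membrane. Ankyrin and protein 4.2 tie that net to the anion exchanger band 3, and protein 4.1 ties it to actin and glycophorin C. The Rh complex sits in the same membrane next to band 3, and the Kell glycoprotein is attached to the junctions that protein 4.1 holds. These genes come on while globin and haem synthesis genes are also active, and several of them are used by other tissues, since β-spectrin and ankyrin 1 also serve skeletal muscle.

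Library totals ran from 16544800 to 20969914 counts. Markers of cartilage (9 genes, 16482 to 54761 CPM in sum) and of skeletal muscle (14 genes, 28132 to 55685 CPM in sum) were both abundant, so that the tissue was not cartilage alone. *Hbb*-cKO replicate 1 held the lowest cartilage sum, and WT replicate 3 the highest muscle sum. The 4 Y-linked genes summed to 0 CPM in WT replicates 1 and 2 and to 57.4 to 146 CPM in the other libraries. Adult globin transcripts summed to 36346, 26572 and 13261 CPM in the WT libraries and to 8676, 11625 and 10370 CPM in the *Hbb*-cKO libraries. Every *Hbb*-cKO library thus lay below every WT library, at 40.3% of the WT mean, and the α-globin genes, which were not targeted, were lower by as much as the β-globin genes. In the edgeR quasi-likelihood fit the log2 fold changes ran from -1.43 (*Hba-a2*) to -1.28 (*Hbb-bs*) with adjusted p from 0.219 to 0.321, and DESeq2 called all 4 genes lower.

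None of the 8 membrane and blood group genes passed the test in either tool. CPM are counts per library scaled to the normalized library size and a common total, a fold change is *Hbb*-cKO over WT, and a call needed an adjusted p under 0.05 over all genes tested. edgeR called 0.105% of all genes (0.0349% higher in *Hbb*-cKO) and DESeq2 called 1.45%. At an unadjusted p under 0.05 edgeR held 1 of the 8, *Rhd*, which was higher in *Hbb*-cKO, against 10.1% of all genes in either direction and 4.89% higher. Of the 8 log2 fold changes 6 were positive, against 47.5% of all genes, and their median was 0.43 against -0.01 over all genes tested. In bulk tissue, fewer cells of a type and less RNA per cell cannot be told apart.

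**Figure D1:**
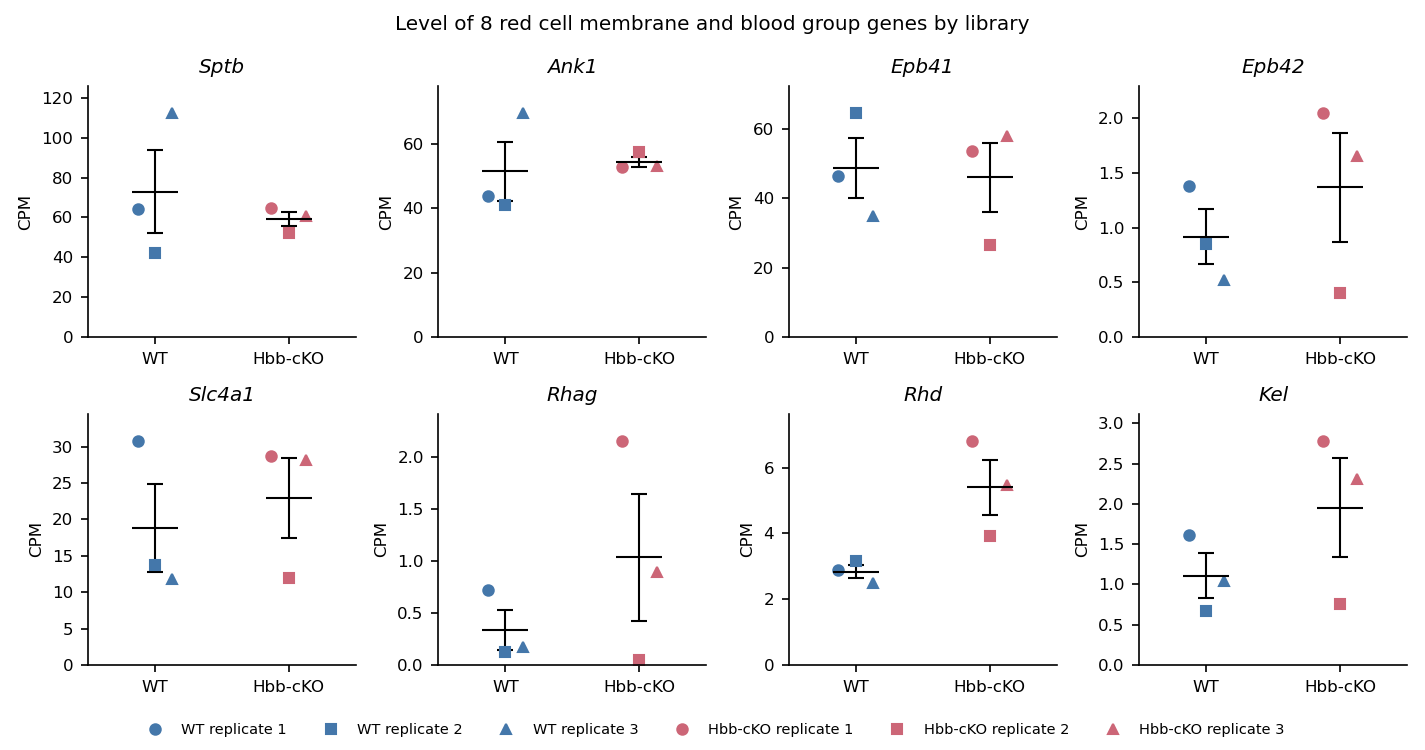
CPM of the 8 genes in each library (vertical axes start at 0 and differ between panels). Points are libraries, marked by replicate, and bars are mean ± s.e.m. of n = 3. Only for *Rhd* do the WT libraries (2.48 to 3.16 CPM) lie apart from the *Hbb*-cKO libraries (3.91 to 6.82 CPM).

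In CPM, which are not corrected for length, *Sptb*, *Ank1* and *Epb41* of the spectrin skeleton had the highest means of the 8. *Sptb* (ENSMUSG00000021061, chr12:76580488-76710547, minus strand, GRCm38) encodes erythroid β-spectrin. Its level was 64.1, 42.3 and 112 CPM in the WT libraries and 64.8, 52.4 and 60.5 CPM in the *Hbb*-cKO libraries. WT replicate 3 was highest and WT replicate 2 lowest, and the *Hbb*-cKO libraries lay between them. The log2 fold change was -0.30 (SE 0.33, 95% interval -1.09 to 0.49, adjusted p = 0.824 by edgeR), and it was 0.16 without WT replicate 3. *Ank1* (ENSMUSG00000031543, chr8:22974844-23150497, plus strand) encodes ankyrin 1, the adaptor between spectrin and band 3. It stood at 44.0, 41.0 and 69.7 CPM in WT and at 53.0, 57.6 and 53.0 CPM in *Hbb*-cKO. Again WT replicate 3 was highest, and the group means of 51.6 ± 9.11 and 54.5 ± 1.53 CPM (s.e.m., n = 3) differed by less than the spread within WT. Its log2 fold change was 0.08 (SE 0.20, interval -0.38 to 0.54, adjusted p = 0.935 by edgeR).

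*Epb41* (ENSMUSG00000028906, chr4:131923413-132075321, minus strand) encodes protein 4.1R, which strengthens the junction of spectrin with actin and is made in many cell types. It stood at 46.3, 64.6 and 35.0 CPM in WT and at 53.6, 26.5 and 57.9 CPM in *Hbb*-cKO. *Hbb*-cKO replicate 2 was lowest and WT replicate 2 highest, and the ranges overlapped from 35.0 to 57.9 CPM. The log2 fold change was -0.08 (SE 0.34, interval -0.88 to 0.72, adjusted p = 0.964 by edgeR). Its lowest values fell in the libraries with the highest Y-linked sums, *Hbb*-cKO replicate 2 (146 CPM) and WT replicate 3 (122 CPM). *Hbb*-cKO replicates 1 and 3, with Y-linked sums of 57.4 and 58.6 CPM, nevertheless held more *Epb41* than WT replicate 1, which had no Y-linked counts. The covariate fit used the log2 of the Y-linked sum after adding 1 CPM. On that scale it mostly sets libraries with Y-linked counts apart from those without. With this covariate the log2 fold change of *Epb41* was 0.40, that of *Ank1* was -0.29 and that of *Sptb* was -0.77, none past the threshold. All *Hbb*-cKO libraries had Y-linked counts, but of the WT libraries only replicate 3 did. The covariate is thus partly confounded with genotype, and these values lean on WT replicate 3.

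Both partners that anchor the net in the membrane varied more within the groups than between them. *Slc4a1* (ENSMUSG00000006574, chr11:102348824-102366203, minus strand) encodes band 3, the chloride and bicarbonate exchanger and carrier of the Diego antigens. Its level was 30.8, 13.8 and 11.8 CPM in WT and 28.8, 11.9 and 28.2 CPM in *Hbb*-cKO. WT replicate 1 and *Hbb*-cKO replicates 1 and 3 were high (28.2 to 30.8 CPM), and the other 3 libraries stood at 11.8 to 13.8 CPM. The log2 fold change was 0.29 (SE 0.47, interval -0.84 to 1.42, adjusted p = 0.894 by edgeR). *Epb42* (ENSMUSG00000023216, chr2:121017891-121037072, minus strand) encodes protein 4.2, a relative of transglutaminases without enzyme activity that binds band 3 and ankyrin. It had 23, 14 and 9 counts in WT and 36, 8 and 35 counts in *Hbb*-cKO, which is 1.38, 0.851 and 0.519 CPM against 2.05, 0.401 and 1.65 CPM. The same 3 libraries as for *Slc4a1* were the highest. Its log2 fold change was 0.57 (SE 0.60, interval -0.82 to 1.96, adjusted p = 0.812 by edgeR).

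The Rh complex held the sole gene of the 8 whose groups did not overlap. *Rhd* (ENSMUSG00000028825, chr4:134864536-134896172, plus strand) is the Rh antigen gene of the mouse, and *Rhag* (ENSMUSG00000023926, chr17:40811126-40840754, plus strand) encodes the Rh-associated glycoprotein, an ammonium channel that Rh proteins need to reach the cell surface. *Kel* (ENSMUSG00000029866, chr6:41686330-41704339, minus strand) encodes the Kell glycoprotein, a zinc endopeptidase. Promoter windows from RefSeq (GRCm38.p6) were given for 6 of the 8 genes and not for *Slc4a1* and *Ank1*. The 250 bases before the start of *Rhd*, *Kel* and *Rhag* are shown because these 3 genes had the largest log2 fold changes of the 8. Capitals mark the letters AGATAA, a form of the site that GATA factors bind.

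*Rhd*, chr4:134864286-134864535, plus strand: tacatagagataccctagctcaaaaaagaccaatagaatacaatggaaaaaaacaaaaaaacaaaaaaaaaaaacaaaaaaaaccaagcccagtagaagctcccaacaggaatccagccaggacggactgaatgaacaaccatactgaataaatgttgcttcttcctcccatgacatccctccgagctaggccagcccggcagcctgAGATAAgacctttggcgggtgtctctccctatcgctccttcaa

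*Kel*, chr6:41704326-41704575, minus strand: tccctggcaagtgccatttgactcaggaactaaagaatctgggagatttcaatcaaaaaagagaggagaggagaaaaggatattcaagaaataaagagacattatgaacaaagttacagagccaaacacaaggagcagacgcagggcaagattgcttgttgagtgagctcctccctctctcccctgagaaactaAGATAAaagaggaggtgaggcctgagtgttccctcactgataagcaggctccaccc

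*Rhag*, chr17:40810899-40811148, plus strand: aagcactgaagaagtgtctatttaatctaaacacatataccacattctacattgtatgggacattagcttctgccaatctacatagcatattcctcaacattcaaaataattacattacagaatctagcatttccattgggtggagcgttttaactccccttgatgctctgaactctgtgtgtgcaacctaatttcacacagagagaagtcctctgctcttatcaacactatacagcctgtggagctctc

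The match began 43 bases before the start of *Rhd* and 56 bases before that of *Kel*, on the sense strand in both. The *Rhag* window held no AGATAA. Other forms of the GATA site were not searched, so they are unmarked in all windows shown and may be present. A search of the windows of *Sptb*, *Epb41* and *Epb42* found 1 more, in *Epb42*, 226 bases before the start and on the antisense strand. Searched on both strands, AGATAA was present in 11.2% of all 32851 windows of 300 bases. The letters CCNCNCCC, a loose form of the site of KLF factors such as the erythroid regulator KLF1, were present in 49.5% of them and in windows of *Epb41*, *Sptb* and *Rhd*. The KLF match of *Rhd* lay after the start, outside the bases shown, and the 3 sequences held none. A match is a description of the letters only.

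*Rhd* had 48, 52 and 43 counts in WT and 120, 78 and 116 counts in *Hbb*-cKO. Its level was 2.88, 3.16 and 2.48 CPM against 6.82, 3.91 and 5.47 CPM, with means of 2.84 ± 0.197 and 5.40 ± 0.841 CPM (s.e.m., n = 3). Every *Hbb*-cKO library was above every WT library, as was found for 8.7% of all genes tested. The log2 fold change was 0.92 (SE 0.25, interval 0.34 to 1.51, unadjusted p = 0.00655), and with an adjusted p of 0.282 in edgeR and 0.113 in DESeq2 it did not pass the threshold. Over 14 alternatives the value stayed between 0.73 and 1.16, with adjusted p from 0.113 to 0.719.

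*Rhag* was the least expressed of the 8, with 12, 2 and 3 counts in WT and 38, 1 and 19 counts in *Hbb*-cKO. The single count of *Hbb*-cKO replicate 2 has an exact Poisson interval of 0.0253 to 5.57 counts, which covers counting error only. *Hbb*-cKO replicate 1 was highest and *Hbb*-cKO replicate 2 lowest, so that 1 group held both extremes. Its log2 fold change of 1.58 had an SE of 1.10 and an interval from -1.02 to 4.17 (adjusted p = 0.685 by edgeR), and it was 0.50 without *Hbb*-cKO replicate 1. *Kel* had 27, 11 and 18 counts in WT and 49, 15 and 49 counts in *Hbb*-cKO, or 1.62, 0.669 and 1.04 CPM against 2.79, 0.752 and 2.31 CPM. *Hbb*-cKO replicates 1 and 3 exceeded every WT library, whereas *Hbb*-cKO replicate 2 lay among the lowest. The log2 fold change of *Kel* was 0.81 (SE 0.52, interval -0.40 to 2.01, adjusted p = 0.657 by edgeR).

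**Figure D2:**
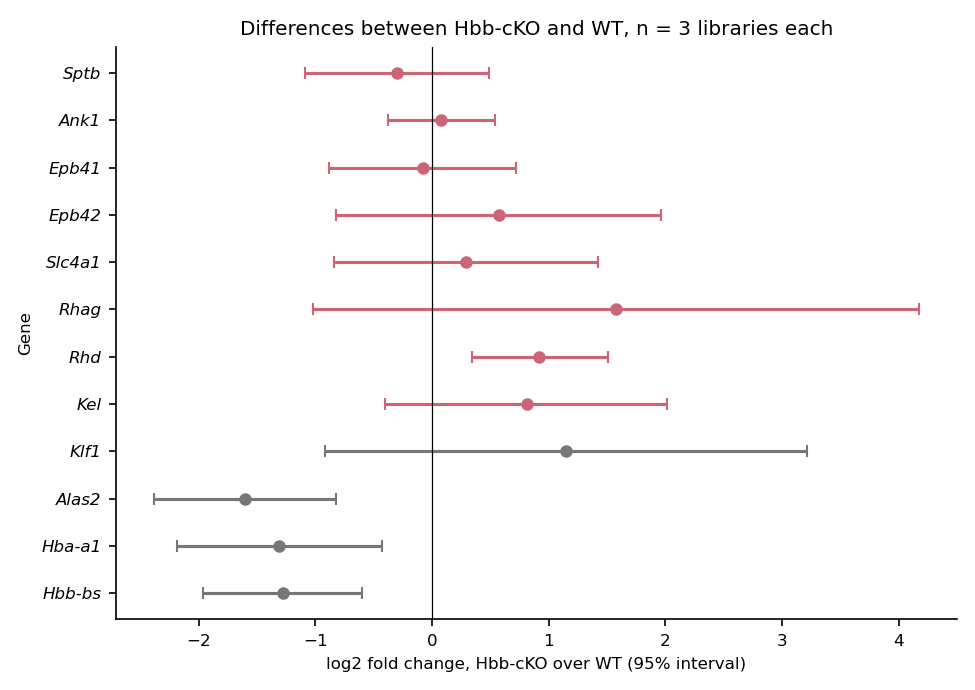
Log2 fold change of *Hbb*-cKO over WT (horizontal axis) with its 95% interval from edgeR, n = 3 libraries per group, for the 8 genes (red) and 4 reference genes (grey). Of the 8 intervals only that of *Rhd* (0.34 to 1.51) leaves out 0, while those of *Alas2*, *Hba-a1* and *Hbb-bs* lie below 0.

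Compared per kb of exon, the 8 genes fell into a high set, a low set and *Rhd* between them in WT. *Sptb* (6.01 ± 1.71 CPM per kb), *Slc4a1* (3.85 ± 1.23), *Ank1* (3.81 ± 0.673) and *Epb41* (3.05 ± 0.540) formed the high set, with ranges over the 3 libraries that overlapped between neighbours. *Rhd* followed at 1.78 ± 0.124 CPM per kb, and its highest WT library (1.98) lay below each of the WT libraries of *Epb41*. *Kel* (0.400 ± 0.0995), *Epb42* (0.169 ± 0.0461) and *Rhag* (0.144 ± 0.0817) were lowest, and of these neighbours *Kel* and *Epb42* overlapped narrowly and *Epb42* and *Rhag* fully. In *Hbb*-cKO the means per kb were 4.88 for *Sptb*, 4.70 for *Slc4a1*, 4.03 for *Ank1*, 3.39 for *Rhd* and 2.89 for *Epb41*, so that *Rhd* stood above *Epb41* there, with overlapping ranges. *Ank1* and *Epb41* each have 16 annotated transcript starts, against 2 to 7 for the other 6 genes. With the length of the longest transcript in place of all exons, their WT means became 6.16 and 5.86 CPM per kb. Opposite-strand genes overlap *Sptb* (*Plekhg3*, 5920 counts in all against 7185 of *Sptb*) and *Ank1* (*Gm15816*, 494 against 5822). Since the strand setting of the counting is not stated, reads of these pairs cannot be assigned with certainty.

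**Figure D3:**
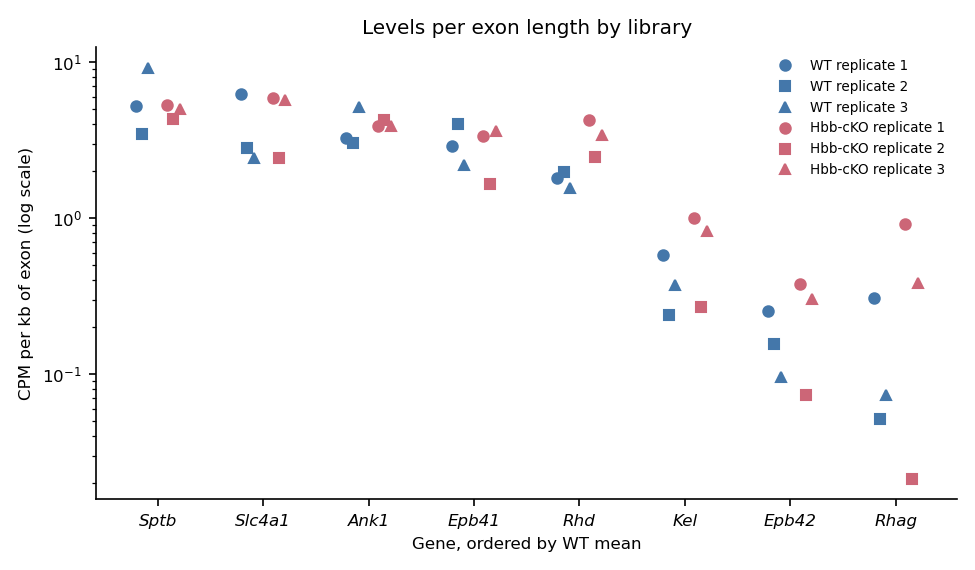
CPM per kb of exon (log scale) of the 8 genes in each library, ordered by the WT mean. *Sptb*, *Slc4a1*, *Ank1* and *Epb41* lie between 1.66 and 9.25 in all 6 libraries, and *Epb42* and *Rhag* below 1.

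The 8 genes did not share a profile over the 6 libraries. Likeness was measured as the root mean square difference of log2 CPM after each gene was centred on its own mean, over 6 libraries, so that 0 is an identical profile. The closest pairs were *Sptb* with *Ank1* (0.28), *Epb42* with *Slc4a1* (0.29), *Slc4a1* with *Kel* (0.34) and *Epb42* with *Kel* (0.38). *Ank1* varied little, with a root mean square of 0.25 around its own mean, so that its difference from *Sptb* was no smaller than that from a flat profile. *Sptb*, whose own value was 0.43, peaked in WT replicate 3, as did *Ank1* and the summed skeletal muscle list. *Sptb* differed from that list by 0.28, and *Ank1* by 0.30, close to its 0.32 from the endothelium list and again no nearer than a flat profile. That list stood at 34098, 37816 and 55685 CPM in WT and at 38261, 28132 and 32094 CPM in *Hbb*-cKO. Among genes outside the 8 whose log2 CPM averaged 1 or more, profiles near to *Sptb* were those of *Gm15816* (0.045), *Flnc* (filamin C of muscle, 0.050), *Bmpr1b* and *Acacb*. *Ank1* was nearest to *Dmxl1* (0.031), *Guf1*, *Phkg1*, *Gpatch2l* and *Gas2l3*. *Epb41* was near to *2900079G21Rik* (0.098), *Csf3r*, *Slc39a7* and *Ccl7*. How far muscle in the tissue contributes to the counts of *Sptb* and *Ank1* was not tested.

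*Slc4a1*, *Epb42*, *Kel* and *Rhag* were high in WT replicate 1 and *Hbb*-cKO replicates 1 and 3, and each was below its own mean in the other 3 libraries. *Klf1*, the erythroid transcription factor, had 19, 8 and 19 counts in WT and 51, 3 and 64 in *Hbb*-cKO (log2 fold change 1.15, adjusted p = 0.718 by edgeR). *Hemgn*, a nuclear protein of blood precursors, was likewise highest in *Hbb*-cKO replicates 1 and 3, at 0.838, 0.243 and 0.231 CPM against 2.61, 0.351 and 2.78 CPM. The 9 genes of the neutrophil lineage were also highest in *Hbb*-cKO replicates 1 and 3. They summed to 37.9, 26.1 and 18.1 CPM in WT and to 125, 27.1 and 104 CPM in *Hbb*-cKO. WT replicate 1 was next in that sum, though below the log2 mean over the 6 libraries (-0.18). Of these 9 genes all had a positive log2 fold change, edgeR called 0 and DESeq2 called 2, while 7 had an unadjusted p under 0.05 in edgeR. The B cell list was also highest in *Hbb*-cKO replicates 1 and 3, with WT replicate 1 next. Its sums were 7.01, 4.5 and 1.44 CPM in WT and 12.2, 3.61 and 8.16 CPM in *Hbb*-cKO. In the nearest-gene search *Rhag* fell beside the neutrophil genes *Mpo* (0.522), *S100a9* (0.676), *Stfa1* and *S100a8* and beside *Cstdc5*. That search left out the 8 genes themselves and genes whose log2 CPM averaged under 1, among them *Klf1* and *Hemgn*. *Rhag* differed from *Kel* and from *Epb42* by 0.68 each, about as much as from *S100a9*. *Kel* was nearest to *Elp3* (0.181), *Lcn2*, *Ctse*, *H2az1* and *Gpr160*, *Slc4a1* to *Tmem45b* (0.138), *Lgals12*, *Knop1*, *Elp3* and *Gpr160*, and *Epb42* to *Tmem45b* (0.167), *Ltc4s*, *Ergic1*, *Cx3cr1* and *Tmem179*. *Rhd* was nearest to *2610203C22Rik* (0.096), *Sncg*, *Unc5a*, *Gm5620* and *Hoxb3*. The part that precursors of other blood lineages in the libraries have in these values was not tested. *Hbb*-cKO replicate 1 held the highest value for 4 of the 8 genes (*Epb42*, *Rhag*, *Rhd* and *Kel*).

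**Figure D4:**
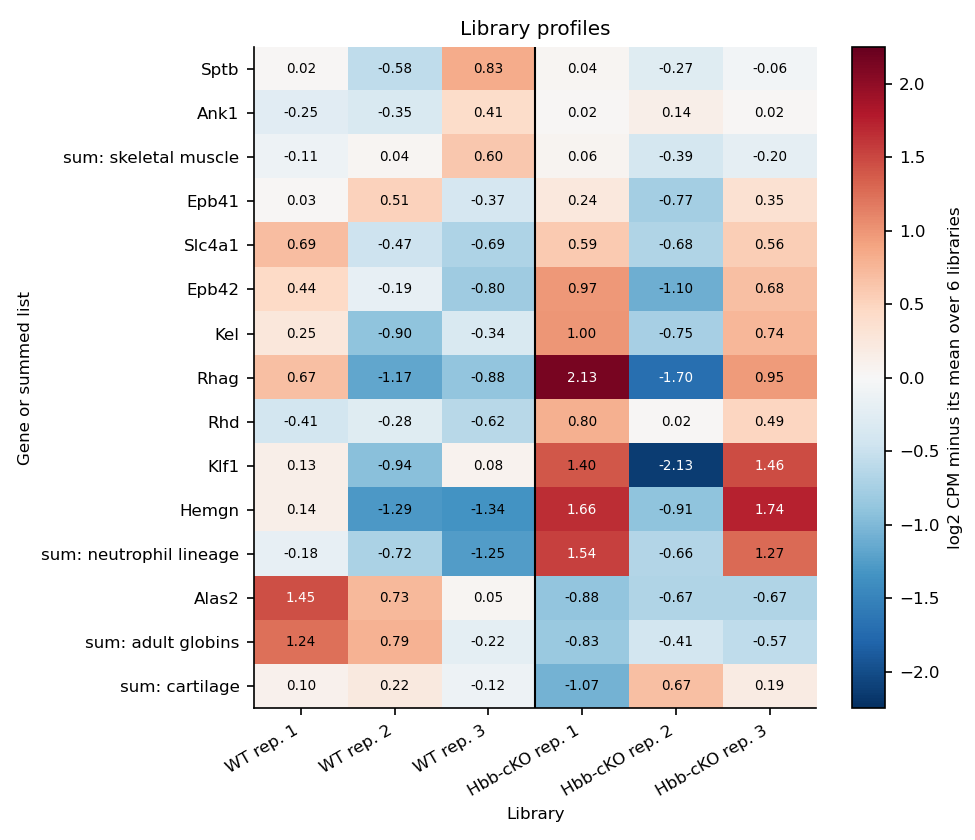
Centred log2 CPM (colour and printed value, log2 CPM minus the mean over the 6 libraries) of the 8 genes, 3 reference genes and 4 summed lists, with the WT libraries left of the line. *Rhag* ranges from -1.70 in *Hbb*-cKO replicate 2 to 2.13 in *Hbb*-cKO replicate 1, whereas *Alas2* and the summed adult globins are highest in WT replicate 1.

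Adult globins and *Alas2*, the erythroid enzyme that starts haem synthesis, had another profile. *Alas2* had 8009, 4771 and 3143 counts in WT and 1671, 2188 and 2325 in *Hbb*-cKO. In CPM, too, every *Hbb*-cKO library was below every WT library, as it was for 8.96% of all genes. Its log2 fold change was -1.60 (SE 0.33, adjusted p = 0.184 by edgeR), and DESeq2 called it lower. Dividing by the adult globin counts of the same library removes library scaling, and all 8 membrane genes were then higher on average in *Hbb*-cKO, with ratios of geometric means from 2.02 (*Sptb*) to 4.28 (*Rhag*) and 4.295 (*Rhd*). On the log2 scale that of *Rhag* was 0.87 without *Hbb*-cKO replicate 1 and 3.79 without *Hbb*-cKO replicate 2. *Slc4a1* had 8.49, 5.20 and 8.92 counts per 10000 globin counts in WT and 33.1, 10.3 and 27.2 in *Hbb*-cKO. *Rhd* had 0.791, 1.19 and 1.87 in WT and 7.86, 3.36 and 5.28 in *Hbb*-cKO. These genes did not overlap between the groups (two-sided exact permutation p = 0.1 for each, the smallest that 3 against 3 allows), whereas the other 6 overlapped. The denominator itself was lower in *Hbb*-cKO, and every *Hbb*-cKO library was above every WT library by this measure for 60.7% of all genes, with a median log2 difference of 1.20, and 2 of 8 is not above that share. *Alas2* differed by -0.28 on the same scale, with 132, 109 and 137 counts per 10000 globin counts in WT and 109, 94.3 and 106 in *Hbb*-cKO (exact permutation p = 0.2). With *Alas2* as the denominator, the log2 differences of the 8 genes ran from 1.30 (*Sptb*) to 2.39 (*Rhd*), and 6 of the 8 did not overlap (all but *Sptb* and *Rhag*), against 83.6% of all genes.

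**Figure D5:**
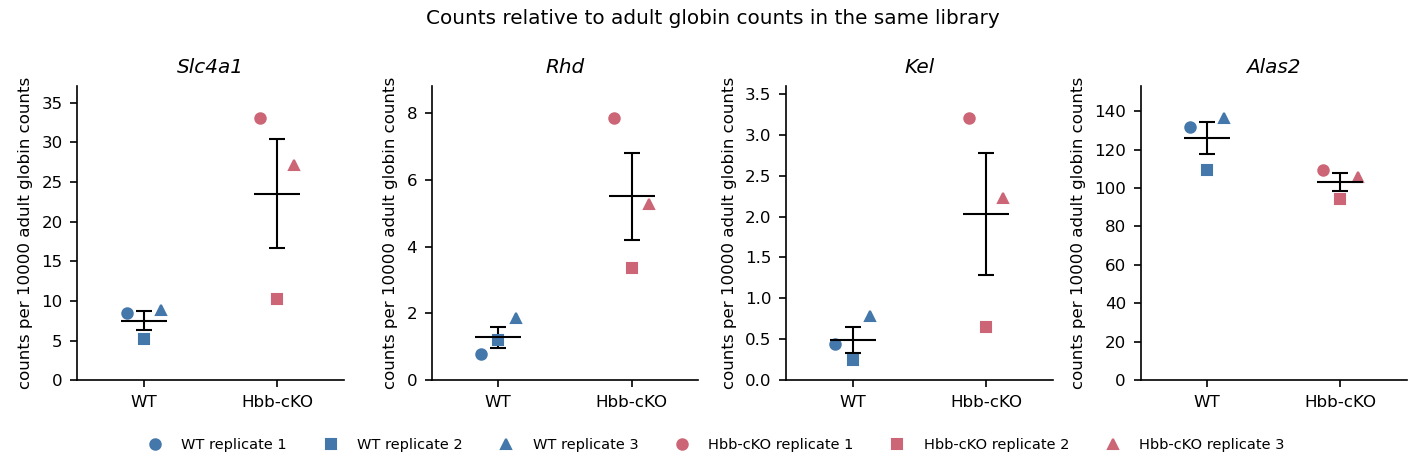
Counts per 10000 adult globin counts of the same library for *Slc4a1*, *Rhd*, *Kel* and *Alas2* (axes start at 0). Points are libraries and bars are mean ± s.e.m. of n = 3. *Slc4a1* and *Rhd* are higher in each *Hbb*-cKO library, and *Alas2* lies between 94.3 and 137 in all 6.

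Genes that work beside the 8 gave a mixed picture. Of 7 other genes of the red cell skeleton, 6 had a positive and 1 a negative log2 fold change, edgeR and DESeq2 called none, and 2 had an unadjusted p under 0.05. These were the adducins, which cap actin at the spectrin junctions, *Add1* (47.3 to 65.3 CPM in WT and 68.7 to 142 CPM in *Hbb*-cKO, log2 fold change 0.73, adjusted p = 0.456 by edgeR) and *Add2* (1.44 to 3.63 CPM against 4.21 to 5.05 CPM, 0.89, adjusted p = 0.395 by edgeR). *Dmtn* (dematin, which bundles actin) and *Stom* (stomatin) followed at 0.31 and 0.14. The median of the list was 0.14.

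Of 18 other carriers of blood group antigens, 16 were tested, 9 had a positive and 7 a negative log2 fold change, and neither tool called any. The median was 0.03. *Cd59a*, an inhibitor of complement, had the smallest p (3.95 to 5.84 CPM against 7.03 to 16.7 CPM, log2 fold change 1.17, adjusted p = 0.312 by edgeR). *Smim1*, the Vel antigen gene, and *Ackr1*, the Duffy antigen gene, stood at 0.41 and 0.28.

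Relatives of the 8 genes that serve other tissues were 17, of which 14 were tested, with 8 positive and 6 negative log2 fold changes, a median of 0.09 and no call by either tool. *Epb41l3* (24.9 to 40.6 CPM against 46.3 to 48.9 CPM, log2 fold change 0.56, adjusted p = 0.327 by edgeR) and *Epb41l1* (42.1 to 51.0 CPM against 52.4 to 59.3 CPM, 0.30, adjusted p = 0.443 by edgeR) are both of the protein 4.1 family, and neither overlapped between the groups. Of the 14 tested relatives, 3 lay higher in *Hbb*-cKO without overlap and 1 lay lower, against 8.7% and 8.96% of all genes. *Ank3*, ankyrin G, stood at -0.74. *Ank3* reached 51.4 CPM in WT replicate 3 against 11.6 to 19.4 CPM in the other 5 libraries. Of 13 reference genes of erythroid cells, 10 were tested, with 3 positive and 7 negative log2 fold changes. edgeR called 0 of the 10 and DESeq2 called 1, *Alas2*, and 1 had an unadjusted p under 0.05 upward (*Hemgn*, 2.11) and 2 downward (*Alas2* and *Bpgm*, the enzyme that makes the haemoglobin ligand bisphosphoglycerate, -0.58). *Slc25a37*, the mitochondrial iron importer mitoferrin, stood at -0.43.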

How the data were processed

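RNA sequencing of P6 knee joint cartilage (3 WT and 3 *Hbb*-cKO libraries) was analysed from the whole-number counts per gene that the authors deposited, without normalization. Tools listed in the submitters' processing notes are HISAT2 2.1.0, StringTie, fastp 0.19.5, CASAVA 1.8 and edgeR. Settings, genome build and strand are not stated there or in the paper, and gene positions equalled GENCODE M21 (GRCm38) for 99.4% of identifiers found there. Genes were filtered (minimum count 10, minimum total 15), scaled by TMM and fitted with robust quasi-likelihood in edgeR 4.0.16 (R 4.3.3). P-values were adjusted by Benjamini-Hochberg over 17175 genes. Likeness used log2 CPM with a prior count of 2. Counts of any pair of libraries differed by more than sampling noise (chi-square per gene 22.2 to 60.8), so no library appeared to be deposited more than once, and each was counted as 1 sample. The fits were tested on simulated data. Alternatives were DESeq2 1.42.0, other scalings and filters, a replicate block, a Y-linked covariate, leaving out each library, and another denominator and length.

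The genes and lists were chosen with earlier results of these data known. Named genes were the 8 genes, the adult globins, *Klf1*, the 4 genes of lowest unadjusted p in each list, and 5 nearest profiles per gene. Markers of macrophages, B cells and endothelium (6, 5 and 5 genes) held 0 calls by edgeR and by DESeq2, with 1, 0 and 2 genes at an unadjusted p under 0.05. Cartilage, muscle and Y-linked lists likewise held 0 calls by both tools, with 0, 4 and 0 genes at an unadjusted p under 0.05. A few genes that this rule names are not reported here.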

Additional observations from a re-analysis of the deposited data

How the results depend on the processing

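None of the 8 membrane genes was called under any of the 14 alternatives that were fitted, *Rhag* was not tested where CPM had to exceed 1 in 3 libraries. Over all genes, the 18 calls of edgeR became 249 with DESeq2, 60 without a filter on low counts, 48 with the Y-linked covariate, 4 with the replicate block and 1 to 39 when a library was left out (1 without WT replicate 1, 39 without WT replicate 3, 6 without *Hbb*-cKO replicate 2 and 2 without *Hbb*-cKO replicate 3). No pairing of same-numbered libraries is stated, so the replicate block has no stated basis. Deviations of same-numbered libraries had correlations of -0.026, -0.108 and -0.029, and those of differently numbered ones ran from -0.074 to 0.097. With so few libraries per group these values cannot decide whether a pairing exists. Negative log2 fold changes numbered 2 of 8, and 1 to 3 when a library was left out. Signs turned for *Ank1* (-0.29 with the Y-linked covariate, -0.04 to 0.36 when a library was left out) and *Epb41* (0.40, and -0.28 to 0.20). The sign of *Sptb* turned only without WT replicate 3 (range -0.56 to 0.16 when a library was left out). With the Y-linked covariate *Sptb* kept its sign, at -0.77. The cause of these turns was not tested. Other log2 fold changes kept their sign, at 0.04 to 0.95 for *Slc4a1*, 0.18 to 1.48 for *Epb42*, 0.47 to 1.19 for *Kel* and 0.50 to 3.07 for *Rhag*. With the longest transcript as length, *Ank1* stood at 6.16 and *Epb41* at 5.86 CPM per kb. Leaving out a library moved log2 differences per globin count to 0.91 to 1.97 for *Ank1*, 0.76 to 1.54 for *Epb41*, 1.03 to 2.42 for *Epb42*, 1.19 to 2.04 for *Slc4a1*, 0.87 to 3.79 for *Rhag* and 1.43 to 2.59 for *Kel*, to as little as 0.59 for *Sptb* and to as much as 2.42 for *Rhd*.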
